A study of Mus musculus with 10 samples.

Results

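Interferon-stimulated genes are the genes that cells switch on after an interferon has bound its receptor. A list of 49 such genes was taken by gene symbol, and 47 of them had a row in the table of kidney transcripts. After a filter on low values 45 of the 47 were tested, among 13197 genes tested in all from 13837 genes in the table.

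The study asked how a mutation that keeps the nutrient-sensing GTPase RagC active affects mice as they age. Whole kidneys were taken from mice at 3 months of age, 5 of genotype Rragc +/+ and 5 of genotype Rragc S74N/+, with 1 library per mouse. The mutant mice carried, in heterozygosity, a germline knock-in allele made by gene editing, with a serine-to-asparagine change at position 74 of RagC and some silent changes, so every cell type of the kidney carried the allele. Both genotypes were kept without any further treatment stated in the labels, and RNA was read from transcript ends by the QuantSeq 3′ method.

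Type I interferons bind Ifnar1 and Ifnar2 and act through a complex with Stat2 and Irf9, which recognizes the interferon-stimulated response element (ISRE). Interferon gamma binds Ifngr1 and Ifngr2 and acts through the gamma-activated site (GAS), and it is a strong inducer of the guanylate binding proteins and the immunity-related GTPases. The induced proteins sense foreign nucleic acid, block viral entry and translation, and attack the vacuoles of intracellular parasites, and kidney epithelium, endothelium and resident leukocytes can all respond.

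Promoter windows of 4 members are shown because they hold these letters in different arrangements, of which that of Igtp and Irgm2 is shared by both. The windows come from RefSeq on build GRCm38.p6 and run from 250 bases before to 50 bases after the start of transcription, 5′ to 3′ on the gene's strand. Isg15, the ubiquitin-like modifier, lies at chr4:156200769-156201068 on the minus strand, and Ifitm3, a membrane protein that blocks viral entry, at chr7:141010695-141010994 on the minus strand. Igtp and Irgm2, immunity-related GTPases, lie at chr11:58199306-58199605 and chr11:58214727-58215026 on the plus strand. Capitals mark each match to the ISRE-type letters, GAAA, any 2 bases and GAAA, or TTTC, any 2 bases and TTTC on the other strand, and to the GAS-type letters, TTC, any 3 bases and GAA, which read the same on both strands. Matches that overlap run together.
Isg15: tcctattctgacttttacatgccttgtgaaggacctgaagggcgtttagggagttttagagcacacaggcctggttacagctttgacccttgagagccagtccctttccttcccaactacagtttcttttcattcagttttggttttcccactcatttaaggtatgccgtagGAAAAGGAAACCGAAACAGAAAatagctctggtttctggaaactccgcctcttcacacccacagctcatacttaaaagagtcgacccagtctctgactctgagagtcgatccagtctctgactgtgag
Ifitm3: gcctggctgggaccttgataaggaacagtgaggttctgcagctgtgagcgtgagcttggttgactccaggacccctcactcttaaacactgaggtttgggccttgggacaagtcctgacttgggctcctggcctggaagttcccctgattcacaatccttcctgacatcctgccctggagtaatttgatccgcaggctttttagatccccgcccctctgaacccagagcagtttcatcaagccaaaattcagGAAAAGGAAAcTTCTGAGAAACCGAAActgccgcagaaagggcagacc
Igtp: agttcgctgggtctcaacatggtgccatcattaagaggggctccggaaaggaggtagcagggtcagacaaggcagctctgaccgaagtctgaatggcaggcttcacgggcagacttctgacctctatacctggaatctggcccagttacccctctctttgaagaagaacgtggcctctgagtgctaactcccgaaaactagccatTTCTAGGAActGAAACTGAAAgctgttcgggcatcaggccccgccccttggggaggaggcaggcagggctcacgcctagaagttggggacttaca
Irgm2: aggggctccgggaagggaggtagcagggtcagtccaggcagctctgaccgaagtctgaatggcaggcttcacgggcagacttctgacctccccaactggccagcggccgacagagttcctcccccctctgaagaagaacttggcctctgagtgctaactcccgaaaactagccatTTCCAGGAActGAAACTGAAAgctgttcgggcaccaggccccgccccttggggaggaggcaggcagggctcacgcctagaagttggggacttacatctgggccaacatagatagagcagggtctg
In Igtp and Irgm2 a GAS-type match was followed by the ISRE-type match GAAACTGAAA. With the windows shifted by 30 bases, 184 of 270 bases (68.1%) were equal between the 2 genes. This shift was picked, among those tried, for the most equal bases, and unrelated windows were not compared in the same way. In Isg15 there were 3 overlapping ISRE-type matches upstream of the start, and in Ifitm3 2 ISRE-type matches and 1 GAS-type match lay just downstream of it.

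Of the 47 members, 39 had a promoter entry. An ISRE-type match was found in 19 of these 39 (48.7%), against 3.99% of 27025 genes with an entry. A GAS-type match was found in 12 (30.8%), against 9.55% of all genes, and both in 6 (15.4%), against 0.614%. Of the 7 GTPase members with an entry, 6 had an ISRE-type and 3 a GAS-type match. The windows of Oasl2 and Gmpr, described below, had neither, which says only that these letters are not in this stretch. A match is a description of the letters and was not tested as a binding site.

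Sequencing depth was similar in the genotypes. The reads recovered from the normalized values numbered 6501552 to 7856363 per library in Rragc +/+ and 6872310 to 7996087 in Rragc S74N/+ (two-sided exact permutation test p = 0.595, smallest possible 0.00794, n = 5 per genotype). All values below are normalized counts, that is, reads per gene divided by a size factor for each library. Rragc itself was read at 347, 247, 244, 293 and 297 in Rragc +/+ replicates 1 to 5 and at 199, 248, 214, 229 and 189 in the Rragc S74N/+ mice, a log2 fold change of -0.40 (SE 0.12, limma adjusted p = 0.0678). The ranges overlapped, and since reads from the transcript end do not tell the alleles apart, these values do not check the genotype labels. The tissue label was checked with markers: all 10 proximal tubule, all 9 distal nephron and all 5 podocyte markers listed were measured. The 4 measured Y-linked genes were read in all 10 mice.

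The members as a group stood slightly higher in Rragc S74N/+ kidneys, and few of them passed the test. With limma on log2(normalized count + 1) and Benjamini-Hochberg adjustment over all 13197 genes, 3 of 45 members (6.67%) had an adjusted p under 0.05, where 487 genes, or 3.69% of all genes tested, did. All 3 rose: Oasl2, Ifitm3 and Gmpr. Higher calls made up 1.67% of all genes. No member fell at this threshold by limma, edgeR or DESeq2, against 2.02% of all genes by limma. The log2 fold change was above 0 in 41 of 45 members, against 50.1% of all genes, with a median of 0.25 in the members and 0.00 in all genes. At an unadjusted p under 0.05, 14 members were higher (31.1%, against 7.96% of all genes) and 1 was lower (2.22%, against 7.42%). The list was chosen with earlier results of these data known, and its members were high together in the same mice. These shares therefore describe the list and do not test it against all genes. These are whole kidneys, so a member's level can change because fewer or more cells of a type are present or because each cell holds less or more RNA, and these cannot be told apart.

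**Figure D1:**
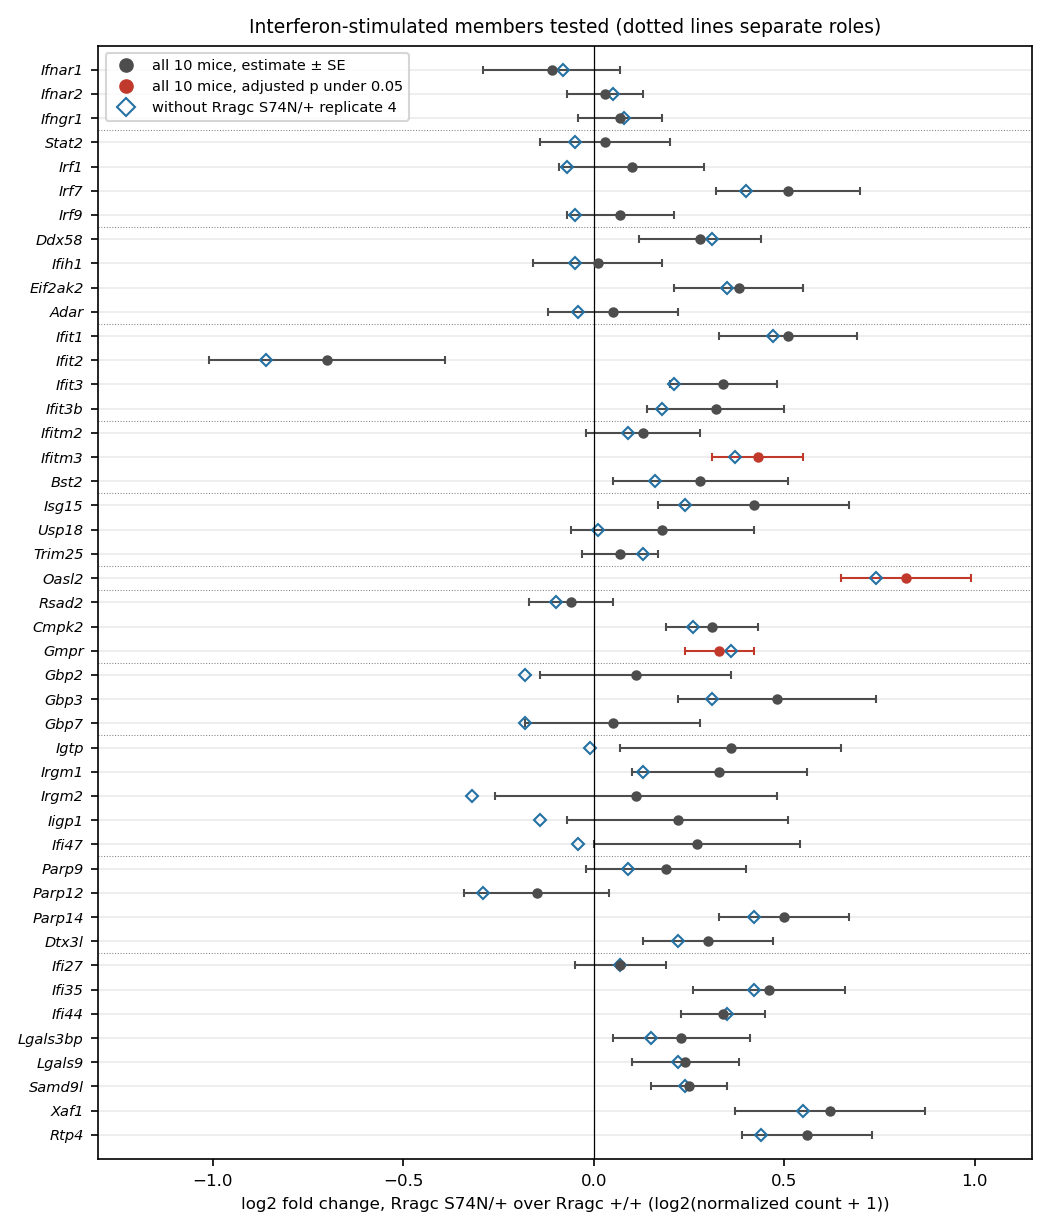
Log2 fold change of each of the 45 tested members, Rragc S74N/+ over Rragc +/+, on the log2(normalized count + 1) scale, with bars of 1 standard error; dotted lines separate functional groups. Red points mark the 3 members past the threshold, and open diamonds give the estimate without Rragc S74N/+ replicate 4, which lies below 0 for 15 members, among them 6 GTPases (Gbp2, Gbp7, Igtp, Irgm2, Iigp1 and Ifi47) and Stat2, Irf1, Irf9, Ifih1 and Adar.

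The shift rested largely on 2 of the 5 mutant mice. Without Rragc S74N/+ replicate 4, 30 of 45 members had a log2 fold change above 0 with a median of 0.13, and 1 member, Oasl2, passed the threshold. Without replicate 5 the values were 36 of 45 and 0.22, with Gmpr and Oasl2 past the threshold. With both left out, a comparison chosen after the data were seen, 26 of 45 were above 0 with a median of 0.06. Then 6 members had an unadjusted p under 0.05, against 12.9% of all genes, and 1 member, Gmpr, had an adjusted p under 0.05. Leaving out Rragc +/+ replicate 3, 4 or 5 also left 1 member past the threshold, Oasl2 in each case, with 40, 38 and 39 of 45 above 0.

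Oasl2, a member of the oligoadenylate synthetase family that acts in antiviral defense, gave the largest fold change of the tested members. It was read at 42.0, 55.1, 37.4, 40.7 and 39.5 in Rragc +/+ replicates 1 to 5 and at 59.8, 61.3, 75.7, 95.9 and 95.4 in Rragc S74N/+ replicates 1 to 5. The lowest mutant mouse was above the highest wild-type mouse, and replicates 4 and 5 were the highest. The means were 43.0 ± 7.01 and 77.6 ± 17.6 (SD, n = 5 each), a log2 fold change of 0.82 (SE 0.17, limma adjusted p = 0.0104). The call held when any single mouse was left out, with log2 fold changes of 0.74 to 0.91. It was lost only with replicates 4 and 5 of Rragc S74N/+ both left out (0.60, adjusted p = 0.133).

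Gmpr, guanosine monophosphate reductase, which returns guanine nucleotides to the inosine pool, was read at 876, 919, 806, 791 and 742 in Rragc +/+ and at 1128, 993, 1162, 943 and 959 in Rragc S74N/+ replicates 1 to 5. Here too the genotypes did not overlap, but replicates 1 and 3, not 4 and 5, were the highest mutant mice. The means were 827 ± 70.3 and 1037 ± 101 (SD, n = 5 each), a log2 fold change of 0.33 (SE 0.09, limma adjusted p = 0.0483). The adjusted p stayed under 0.05 only without Rragc +/+ replicate 2 or Rragc S74N/+ replicate 5, and ran from 0.0531 to 0.158 without each of the other 8 mice. It was 0.0536 after TMM rescaling, another scaling of the libraries, and 0.0557 by edgeR. Oasl2 and Gmpr were the 2 members (4.44%) whose genotypes did not overlap, against 5.0% of all genes, and both were higher, against 2.29% of all genes.

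Ifitm3, which restricts viral entry at membranes, was read at 975, 767, 733, 742 and 767 in Rragc +/+ and at 1164, 862, 904, 1266 and 1209 in Rragc S74N/+ replicates 1 to 5. Rragc +/+ replicate 1 lay above mutant replicates 2 and 3, so the ranges overlapped. The means were 796 ± 101 and 1081 ± 185 (SD, n = 5 each), a log2 fold change of 0.43 (SE 0.12, limma adjusted p = 0.0456). The call held without Rragc +/+ replicate 1, or Rragc S74N/+ replicate 2 or 3, and the adjusted p ran from 0.0857 to 0.125 without each of the other 7 mice. It was 0.0528 after TMM rescaling. Reads that match more than 1 related gene cannot be assigned to a single gene with certainty. This can leave the values of Ifitm2 and Ifitm3, Ifit3 and Ifit3b, and the GTPase families uncertain as single genes, which was not tested.

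**Figure D2:**
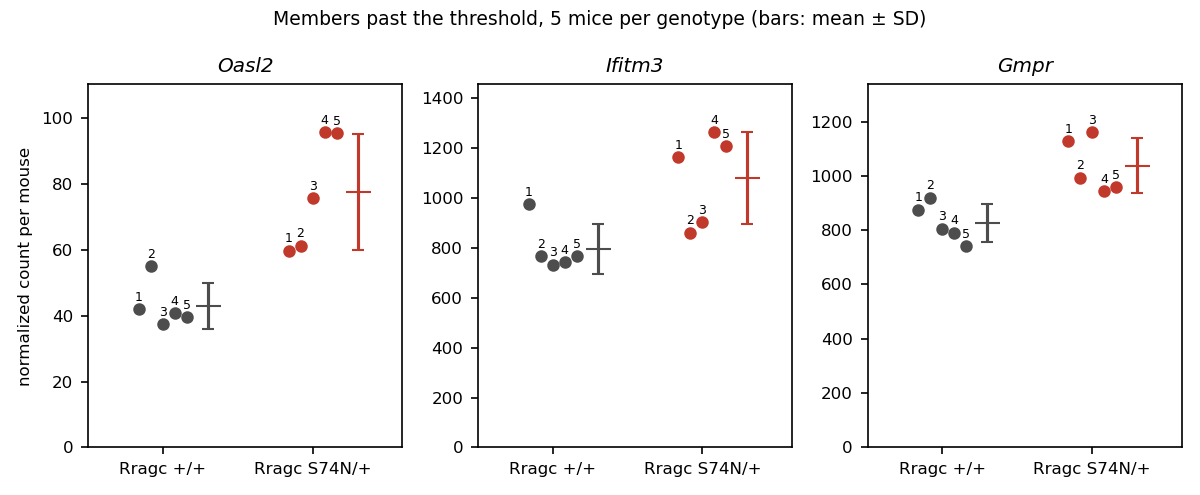
Normalized counts of Oasl2, Ifitm3 and Gmpr in each of 5 Rragc +/+ and 5 Rragc S74N/+ mice, numbered by replicate, with mean ± SD beside the points; the axes start at 0. Oasl2 and Gmpr do not overlap between the genotypes, and Rragc +/+ replicate 1 overlaps the mutant mice for Ifitm3.

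The sample titles fall into 2 runs of library codes, an earlier and a later one, whose meaning the labels do not give. The earlier run held 2 Rragc +/+ and 1 Rragc S74N/+ mice, too few for a value of its own. Within the later run, with 3 and 4 mice, the log2 fold changes were 1.02 for Oasl2 (adjusted p = 0.0149), 0.48 for Ifitm3 (0.073) and 0.37 for Gmpr (0.0603). With the run as a covariate all 3 kept an adjusted p under 0.05.

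The receptors differed little between the genotypes. Ifnar1, a chain of the type I receptor, was read at 47.5, 38.2, 57.8, 42.9 and 35.2 in Rragc +/+ and at 32.2, 38.1, 48.3, 37.6 and 48.7 in Rragc S74N/+ replicates 1 to 5 (log2 fold change -0.11, SE 0.18, adjusted p = 0.848). Its partner Ifnar2 was read at 253, 257, 240.4, 219.7 and 243 and at 241, 213, 263, 235 and 295 (0.03, SE 0.10, adjusted p = 0.927). Ifngr1, the ligand-binding chain of the interferon gamma receptor, was read at 245, 285, 219, 238 and 224 and at 230.5, 217, 291, 241 and 293 (0.07, SE 0.11, adjusted p = 0.841). In all 3 the ranges overlapped, none was highest in replicate 4, and Ifnar2 and Ifngr1 were highest in replicate 5.

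Among the transcription factors, Irf7, which amplifies the type I response, gave the largest difference. It was read at 67.6, 91.6, 49.9, 70.7 and 80.1 in Rragc +/+ and at 77.8, 89.2, 84.1, 136 and 129 in Rragc S74N/+ replicates 1 to 5 (log2 fold change 0.51, SE 0.19, adjusted p = 0.174). Replicates 4 and 5 were above every wild-type mouse and replicates 1 to 3 were inside the wild-type range. Irf1, which acts downstream of interferon gamma, was read at 148, 126, 111, 124 and 126 and at 102, 119.9, 96.7, 217 and 178 (0.10, SE 0.19, adjusted p = 0.861). Irf9, the DNA-binding subunit of the type I complex, was read at 175, 149, 168, 189 and 145 and at 154, 151, 141, 240.2 and 195 (0.07, SE 0.14, adjusted p = 0.874). Irf1 and Irf9 thus had the same 2 mice at the top and means that differed little. Stat2, which pairs with Irf9, was read at 99.5, 115, 72.6, 96.5 and 63.0 and at 93.9, 73.4, 79.9, 109.7 and 91.5 (0.03, SE 0.17, adjusted p = 0.965), with the highest value in a wild-type mouse.

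Of the nucleic acid sensors and editors, Eif2ak2, the kinase that halts translation on double-stranded RNA, had a log2 fold change of 0.38 (adjusted p = 0.274) and Ddx58, which encodes the RNA sensor RIG-I, 0.28 (adjusted p = 0.437). Ifih1, another RNA sensor, and Adar, an RNA-editing enzyme, were at 0.01 and 0.05. Dhx58 and Zbp1 were measured but left untested by the filter on low values. Zbp1, a sensor of nucleic acid in the Z form, was read at 12.8, 8.00, 4.54, 8.58 and 6.41 in Rragc +/+ and at 15.2, 8.36, 9.46, 31.6 and 17.5 in Rragc S74N/+ replicates 1 to 5, again highest in replicates 4 and 5. Dhx58, a regulator of RNA sensing, was read at 9.13, 8.89, 2.27, 7.50 and 6.41 and at 17.1, 7.43, 11.6, 17.8 and 14.6, from 2 to 18 reads per library. Without the filter neither passed the test (log2 fold changes 0.86 and 0.95, adjusted p = 0.268 and 0.214).

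The Ifit family binds viral RNA ends and blocks their translation. Ifit1, Ifit3 and Ifit3b had log2 fold changes of 0.51, 0.34 and 0.32 (adjusted p = 0.141, 0.245 and 0.437), and Ifit2 had -0.70 (SE 0.31, adjusted p = 0.269). Ifit1 passed the threshold only without Rragc S74N/+ replicate 3 (0.68, adjusted p = 0.014). Ifit2 had few reads, 5 to 17 per library, with means of 13.7 ± 2.24 and 8.36 ± 3.11 (SD, n = 5 each). Its 5 mutant values were all below the wild-type mean, while Rragc S74N/+ replicate 4 was within the wild-type range. Ifit2 passed the filter on low values through the Rragc +/+ mice, at 11.0 to 16.1. The mutant values were 6.64, 10.2, 5.25, 12.8 and 6.81, so they alone would not have passed it. Its fold change, the lowest of the tested members, is therefore given as a description only. The other 3 genes of its family were above 0.

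Isg15, whose promoter is printed above, was read at 56.6, 68.5, 39.7, 34.3 and 58.7 in Rragc +/+ and at 63.6, 56.7, 38.9, 111 and 86.6 in Rragc S74N/+ replicates 1 to 5 (log2 fold change 0.42, SE 0.25, adjusted p = 0.474). Only replicates 4 and 5 lay above the wild-type range. Usp18, which removes Isg15 from proteins, and Trim25, a ubiquitin ligase, had log2 fold changes of 0.18 and 0.07. Of the other membrane factors, Bst2, which tethers budding virions, was at 0.28 and Ifitm2 at 0.13. Of the other nucleotide enzymes, Cmpk2, a mitochondrial nucleotide kinase, was at 0.31 (adjusted p = 0.19) and Rsad2, which makes a chain-terminating nucleotide and is also called viperin, at -0.06 (adjusted p = 0.866).

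Among the ADP-ribosylation genes, Parp14 was at 0.50 (adjusted p = 0.128), Dtx3l at 0.30, Parp9 at 0.19 and Parp12 at -0.15. Parp9 varied most among the wild-type mice of this group, with 52.0, 88.9, 101, 61.1 and 101 in Rragc +/+ and 67.3, 79.0, 71.5, 118 and 126 in Rragc S74N/+ replicates 1 to 5. The 8 remaining induced genes all had log2 fold changes above 0, from 0.07 in Ifi27 to 0.62 in Xaf1, and none passed the test by limma or edgeR. Xaf1, which promotes apoptosis, was read at 34.7, 32.0, 14.7, 17.2 and 31.0 in Rragc +/+ and at 37.0, 30.7, 32.6, 47.4 and 46.7 in Rragc S74N/+ replicates 1 to 5 (SE 0.25, adjusted p = 0.218). Wild-type replicates 3 and 4 were low and mutant replicates 4 and 5 high. Rtp4, Ifi44, Ifi35, Samd9l, Lgals9 and Lgals3bp had log2 fold changes of 0.56, 0.34, 0.46, 0.25, 0.24 and 0.23, and Rtp4 came nearest to the threshold (adjusted p = 0.0925). Rtp4 passed it by DESeq2 (0.60, adjusted p = 0.0389), in the later run of library codes alone (0.80, adjusted p = 0.0345) and without Rragc S74N/+ replicate 1 (0.70, adjusted p = 0.0257).

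The 8 interferon-induced GTPases tested, Gbp2, Gbp3, Gbp7, Igtp, Irgm1, Irgm2, Iigp1 and Ifi47, did not pass the test, with log2 fold changes of 0.05 to 0.48. None had an unadjusted p under 0.05 by limma, and 1 did by edgeR and by DESeq2, with no adjusted p under 0.05. Proteins of these families act in the defense against pathogens held in vacuoles. All 8 were highest in Rragc S74N/+ replicate 4, at 1.08 times the next mouse in Gbp3 (67.2 and, in replicate 5, 62.3) to 2.74 times in Igtp. Igtp was read at 189, 175, 120.2, 132 and 123 in Rragc +/+ and at 120.5, 140.3, 148, 517 and 171 in Rragc S74N/+ replicates 1 to 5. Iigp1 was read at 163, 212, 192, 214 and 161 and at 136, 145, 158, 600.0 and 267. In both genes replicate 4 was the highest, at 2.74 and 2.25 times the next highest mouse, while replicates 1 to 3 lay within or below the wild-type range.

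Ifi47 was read at 95.8, 92.5, 68.0, 79.3 and 81.1 in Rragc +/+ and at 94.9, 71.5, 55.7, 233 and 112 in Rragc S74N/+ replicates 1 to 5. Irgm2 was read at 21.0, 18.7, 22.7, 35.4 and 20.3 and at 18.0, 23.2, 12.6, 85.0 and 20.4. For Irgm2 the other 4 mutant mice did not exceed the wild-type range, and for Ifi47 replicate 5 was also above it. Gbp2, Gbp7, Gbp3 and Irgm1 reached 144, 256, 67.2 and 84.0 in replicate 4, which were 2.05, 1.44, 1.08 and 1.70 times the highest other mouse. The mean of the 5 mutant mice therefore does not describe these genes: without replicate 4 the log2 fold change went from 0.36 to -0.01 for Igtp, from 0.22 to -0.14 for Iigp1, from 0.27 to -0.04 for Ifi47, from 0.11 to -0.32 for Irgm2, from 0.11 to -0.18 for Gbp2 and from 0.05 to -0.18 for Gbp7, all uncalled. Gbp3 and Irgm1 kept values above 0, 0.31 and 0.13.

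Relative to the mean of the wild-type mice on the log2 scale, the median of the 8 GTPases was 1.36 in replicate 4 and 0.29 in replicate 5, and -0.20, -0.22 and -0.18 in replicates 1, 2 and 3. The 5 wild-type mice were between -0.15 and 0.17. The 8 genes took 0.0286% of the reads of replicate 4 and 0.00802% to 0.0128% in the other 9 mice.

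**Figure D3:**
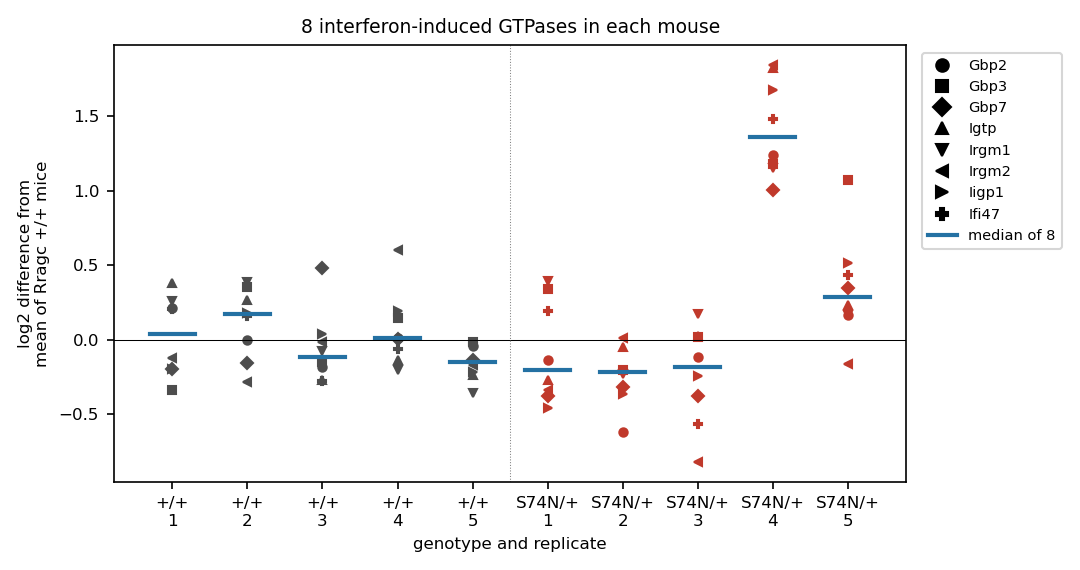
Log2 difference of 8 interferon-induced GTPases from the mean of the 5 Rragc +/+ mice, for each mouse by genotype and replicate, with a blue line at the median of the 8 genes. The median is 1.36 in Rragc S74N/+ replicate 4 and 0.29 in replicate 5, and between -0.22 and 0.17 in the other 8 mice.

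Of the 8 GTPases, 6 were among the 20 genes by which replicate 4 stood out most among all genes. With the 13197 genes ranked by the ratio of replicate 4 to the highest of the other 9 mice, Igtp was ranked 1, Irgm2 3, Iigp1 4, Ifi47 5, Gbp2 6 and Irgm1 13. Of the first 20 genes, 6 were members and 3 came from further lists of interferon genes: Gbp4 (2.54 times the next mouse), Gbp5 (1.72) and the peptide transporter gene Tap1 (1.52). Gbp7 and Gbp3, at 1.44 and 1.08 times the next mouse, were not among them. The same ranking held no member among the first 20 genes in any of the other 9 mice, and 1 gene of the further lists, Socs3, at rank 10 in Rragc S74N/+ replicate 1 (1.66 times the next mouse). The mouse was singled out after its values were seen, and the ranking is a description without a test.

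Replicate 4 was the highest of the 10 mice in 23 of 45 members (51.1%), against 6.15% of all genes: in all 8 GTPases and in 15 of the 37 other members (40.5%). Replicate 5 was the highest in 13 of the 37 other members (35.1%), against 13.1% of all genes, and in none of the GTPases. The median deviation of these 37 members from the wild-type mean was 0.52 in replicate 4 and 0.41 in replicate 5, and 0.15, 0.08 and 0.09 in replicates 1, 2 and 3, on the log2 scale. The 2 mice thus differed in which members were high: both were high in Oasl2 (95.9 and 95.4), Irf7 (136 and 129) and Parp14 (259.9 and 268), replicate 4 was well above replicate 5 in Igtp (517 and 171), Irgm2 (85.0 and 20.4), Usp18 (35.6 and 17.5) and Ifit3 (269 and 186), and replicate 5 was above replicate 4 in Lgals3bp (329 and 426), Ifi27 (337 and 447) and Ddx58 (127 and 192). Of all reads, the 47 members took 0.153% and 0.137% in these mice, 0.107% to 0.111% in the other mutant mice and 0.0962% to 0.112% in the wild-type mice.

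**Figure D4:**
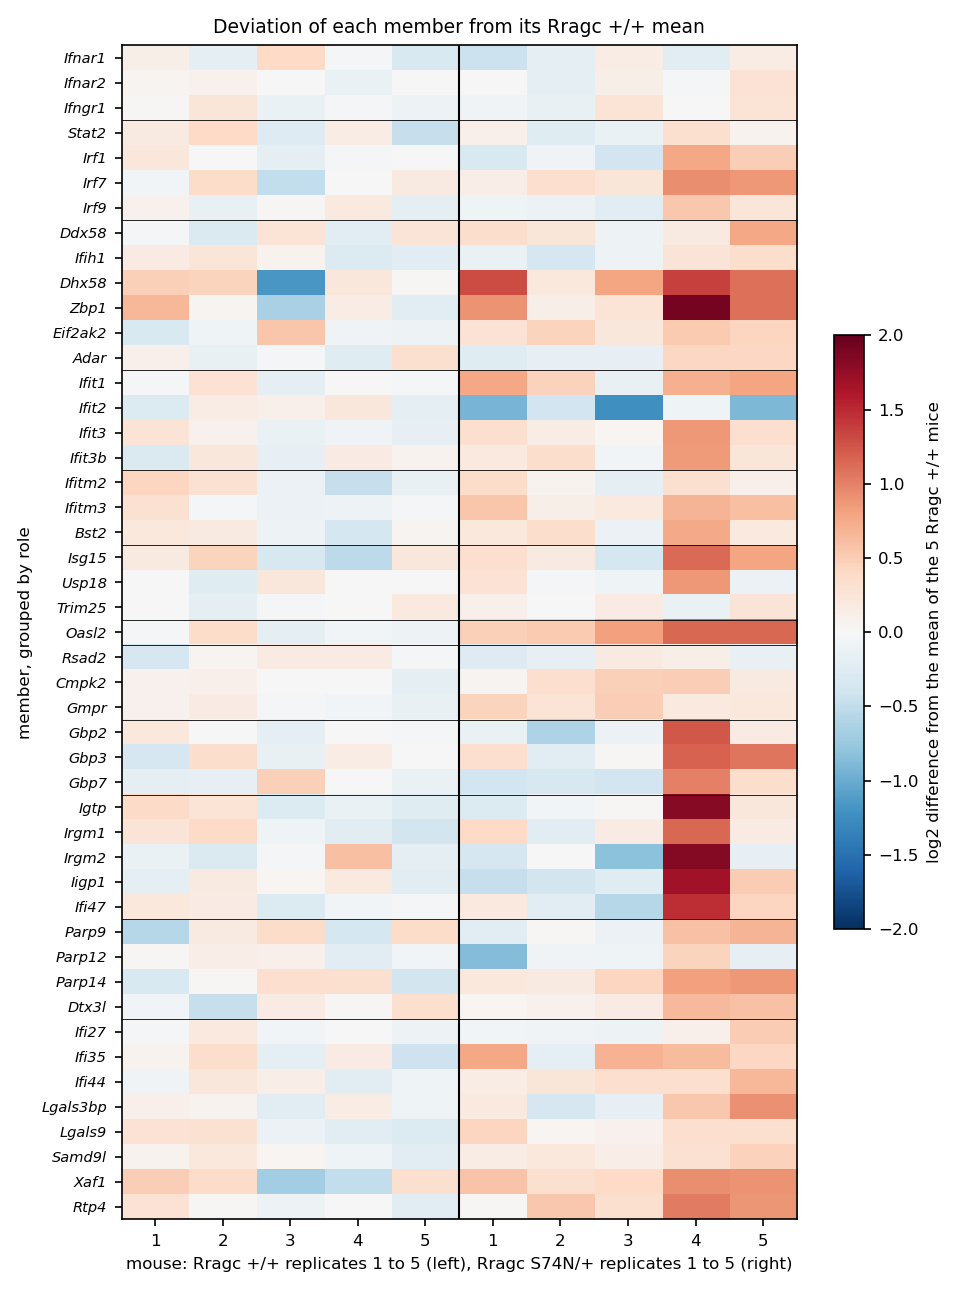
Log2 difference of each of the 47 measured members (rows, grouped by role) from the mean of the 5 Rragc +/+ mice, for Rragc +/+ replicates 1 to 5 (left) and Rragc S74N/+ replicates 1 to 5 (right). Red fields are high: replicate 4 has the highest of the 10 values in 23 of the 45 tested members and replicate 5 in 13.

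The spread between mice of the same genotype was larger in the mutant mice. The median SD of the log2 values was 0.22 in Rragc +/+ and 0.32 in Rragc S74N/+ over the 45 members, against 0.22 and 0.23 over all genes. The SD was larger in Rragc S74N/+ in 34 of 45 members (75.6%), against 54.7% of all genes. Without replicate 4 the median was 0.28 and the SD was larger in 29 of 45 (64.4%, against 56.0% of all genes). For the 8 GTPases the medians were 0.27 and 0.74, and 0.35 without replicate 4. The members with the largest SD in Rragc S74N/+ were Irgm2 (1.02), Iigp1 (0.90), Igtp (0.84), Ifi47 (0.78) and Zbp1 (0.72). In Rragc +/+ they were Dhx58 (0.67), Xaf1 (0.55), Zbp1 (0.49), Parp9 (0.44) and Isg15 (0.41), of which Dhx58 and Zbp1 had at most 14 reads in each wild-type library. Eif2ak2 went the other way, with an SD of 0.33 in Rragc +/+ and 0.12 in Rragc S74N/+.

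**Figure D5:**
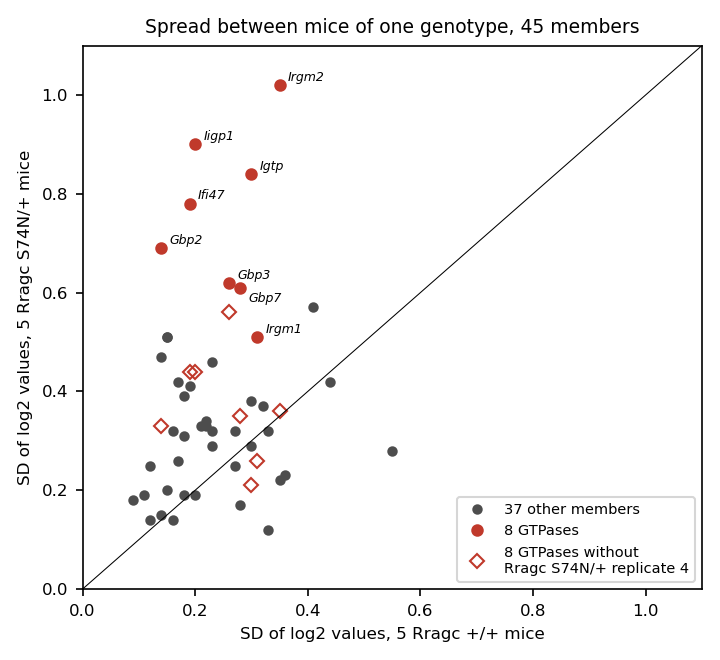
SD of the log2 values over 5 Rragc S74N/+ mice (vertical) against that over 5 Rragc +/+ mice (horizontal) for the 45 tested members; the line marks equal SDs. The 8 GTPases (red) lie above the line with a median of 0.74 against 0.27, and their open diamonds, without Rragc S74N/+ replicate 4, have a median of 0.35.

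Other genes of the pathway were read from lists of signaling components, further induced genes and antigen presentation. None of the 24 signaling components tested passed the threshold, by limma, edgeR or DESeq2, with 2 lower and none higher at an unadjusted p under 0.05 by limma, against 7.42% lower and 7.96% higher of all genes. The 10 interferon genes listed, Ifnb1 and Ifng among them, were not analysed here.

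Of the 58 further induced genes tested, 3 rose and none fell by limma and edgeR, with 11 higher and 2 lower at an unadjusted p under 0.05 by limma. Of all genes, 1.67% were called higher and 2.02% lower by limma, and 7.96% and 7.42% at the unadjusted p. DESeq2 also placed Ifi30 and Slfn5 lower. Ifi27l2a, an interferon-induced gene of the same family as Ifi27, was read at 139, 182, 94.1, 114 and 107 in Rragc +/+ and at 384, 205, 189, 319 and 672 in Rragc S74N/+ replicates 1 to 5. The genotypes did not overlap, and the log2 fold change was 1.35 (SE 0.27, limma adjusted p = 0.00563). It kept an adjusted p under 0.05 without any single mouse and with replicates 4 and 5 both left out (0.99, adjusted p = 0.0265). Shisa5 was read at 906, 747, 938, 753 and 845 in Rragc +/+ and at 1059.5, 1004, 1114, 1017 and 1089.8 in Rragc S74N/+ replicates 1 to 5 (log2 fold change 0.34, SE 0.08, adjusted p = 0.0303). Ido2, a tryptophan-degrading enzyme, was read at 54.8, 47.1, 45.4, 57.9 and 48.0 and at 103, 70.6, 64.1, 71.2 and 76.9 (0.59, SE 0.15, adjusted p = 0.0424). Both were without overlap, and neither was highest in replicate 4 or 5. The call of Shisa5 held without Rragc +/+ replicate 1 or 3 or Rragc S74N/+ replicate 2, with an adjusted p of 0.0522 to 0.104 without each other mouse, and that of Ido2 without Rragc S74N/+ replicate 3, with 0.0528 to 0.124 without each other mouse.

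Of 17 antigen presentation genes of the class I pathway, 2 rose and none fell by all 3 tools, with 3 higher and none lower at an unadjusted p under 0.05 by limma, against the same shares of all genes (1.67% and 2.02% called, 7.96% and 7.42% unadjusted). Tapbp, which loads peptides onto class I molecules, was read at 382, 383, 418, 358 and 348 in Rragc +/+ and at 506, 415, 459, 503 and 584 in Rragc S74N/+ replicates 1 to 5 (log2 fold change 0.38, SE 0.10, adjusted p = 0.0401). The class I gene H2-Q7 was read at 135, 139.6, 134, 137 and 119.6 and at 175, 182, 151, 208 and 176 (0.42, SE 0.11, adjusted p = 0.0416). The genotypes overlapped in Tapbp, in 1 mutant mouse, and not in H2-Q7. The call of Tapbp held without Rragc +/+ replicate 3 or Rragc S74N/+ replicate 2 or 3 (0.0604 to 0.123 otherwise), and that of H2-Q7 without Rragc S74N/+ replicate 3 (0.0579 to 0.126 otherwise). Replicate 4 was the highest mouse in H2-Q7 (208), Tap1 (166) and the immunoproteasome gene Psmb10 (216), as it was in the GTPases. Not all genes of the list followed it. B2m, H2-D1 and H2-K1 were highest in replicate 5, at 5793, 1009 and 557, against 4066, 897 and 523 in replicate 4. In Psmb8, another immunoproteasome gene, replicates 4 and 5 were at 148 and 143 and the other 8 mice at 51.2 to 86.7.

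Markers of other cells moved with some of these mice and with genotype. The 5 leukocyte markers measured of 16 listed summed to 237 to 289 in Rragc +/+ and to 277, 236, 319, 300.5 and 489 in Rragc S74N/+ replicates 1 to 5, and the pan-leukocyte gene Ptprc was at 105 in replicate 4 and 174 in replicate 5, against 80.4 to 119.8 in the other 8 mice. Replicate 4 was inside the range of the other mice for Ptprc, while its leukocyte sum was above the wild-type range. The 11 macrophage and dendritic genes measured of 13 listed summed to 1395 to 1892 in Rragc +/+ and to 1925, 1531, 1781, 1776 and 1975 in the mutant mice; in replicate 5 Lyz2 was the highest of the 10 mice (507, against 153 to 253) and Csf1r the lowest (774, against 821 to 1161). The 2 neutrophil genes measured of 6 listed summed to 290.2 in mutant replicate 1 and to 22.4 to 91.6 in the other 9 mice. Replicate 5 had the highest sums of 9 plasma cell and immunoglobulin genes (11081, against 1362 to 4821), of 6 urothelial genes (627, against 74.7 to 187) and of 3 adipocyte genes (5284, against 119.8 to 1728). The 7 immediate early and stress genes measured of 10 listed were also highest there in sum (1349, against 652 to 1169), and none passed the threshold. The immunoglobulin genes Ighg2b, Ighg2c and Igkc rose with genotype (log2 fold changes 2.58, 3.29 and 1.30, limma adjusted p = 0.000785, 0.000793 and 0.039). The others of the 9 plasma cell and immunoglobulin genes were uncalled, from -0.12 in Xbp1 to 1.25 in Iglc1. Hepatocyte genes summed to 238 to 399 in Rragc +/+ and to 606, 1061, 561, 1033 and 518 in the mutant mice, highest in replicates 2 and 4. Of the 8 genes measured of 9 in this list, Alb and Serpina1b rose (log2 fold changes 1.99 and 1.63, limma adjusted p = 0.00362 and 0.00495). The others were uncalled: Apoa1, Apoa2, Apoc1, Serpina1c and Fga were at 0.89, 0.73, 1.28, 0.82 and 0.13, and Fgb was at -0.39. The 8 endothelial genes summed to 1948 and 1949 in mutant replicates 1 and 5, against 2348 to 2843 in the other 8 mice, and none passed the threshold. Of 10 proximal tubule markers, Slc22a6 and Slc13a3 rose (0.52 and 0.55) and Slc5a2 and Slc5a12 fell (-0.93 and -0.95), and their sums overlapped between genotypes. Of 5 podocyte markers, Synpo rose (0.52, adjusted p = 0.0261). The 9 markers of the loop, distal nephron and collecting duct summed to 30950.4 to 40366 in Rragc +/+ and 16709 to 23656 in Rragc S74N/+. Umod, the largest term of this sum, fell, with 20404 to 28356 in Rragc +/+ and 7760 to 13505 in Rragc S74N/+ (limma adjusted p = 0.000198). Slc12a3 and Slc4a1 also fell (log2 fold changes -1.20 and -0.59, adjusted p = 2.61e-07 and 0.0137), Slc12a1 and Calb1 were at -0.22 and -0.09, and Aqp2, Aqp3, Scnn1g and Slc26a4 were at 0.54, 0.48, 0.66 and 0.25, none of these 6 past the threshold. The part of these other cells, or of the state that the stress genes reflect, in the values of the interferon-stimulated genes was not tested.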

How the data were processed

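Whole kidneys of 3-month-old mice, 5 Rragc +/+ and 5 Rragc S74N/+, were profiled with 1 QuantSeq 3′ library per mouse; groups were taken from the genotype in the sample labels. The submitters' processing notes name FastQC 0.11.7, TopHat2 2.0.10, Bowtie 1.0.0, SAMtools 0.1.19, HTSeq 0.6.1, DESeq2 and build GRCm39. The deposited values are a signal, read counts per gene divided by the authors' size factor for each library, so that a value need not be whole. Whole reads were recovered by dividing each library by the value of 1 read, and 100% of values were whole within 0.01. Depth was 6501552 to 7996087 reads per library, and 0 value columns were left unmatched to a mouse.

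Genes with at least 10 normalized counts in at least 5 mice were tested with limma 3.58.1 (R 4.3.3; trend in the prior variance) on log2(value + 1), with Benjamini-Hochberg adjustment over all genes tested and a threshold of 0.05; fold changes on this scale understate those of low genes. On simulated counts of the same 13197 genes, limma recovered 91% of genes changed by 1 and 57% of genes changed by 0.6 on the log2 scale. The simulation gave every gene the same dispersion in both genotypes. The 8 GTPases had a median SD of the log2 values of 0.27 in Rragc +/+ and 0.74 in Rragc S74N/+. The recovered shares therefore check the fit and do not carry over to members with such a spread. Alternatives were pseudocounts of 0.5 and 5, no filter, a mean of at least 50, rescaling by trimmed means of M-values (TMM), edgeR 4.0.16 quasi-likelihood and DESeq2 1.42.0 on recovered reads, the run of library codes as a covariate or the later run alone, and each mouse left out.

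The members and gene lists were chosen with earlier results of these data known. The hepatocyte, urothelial and adipocyte lists, and the fit without Rragc S74N/+ replicates 4 and 5, were added after values had been seen. Values per mouse are given for members past the threshold, members whose genotypes do not overlap, the 5 with the largest SD in each genotype, receptors, and Stat and Irf factors; from the other pathway lists, for genes past the threshold. Other members given with values per mouse were chosen after their values were seen. Oas1a and Tgtp2 were not analysed here, and a pathway gene is not reported here. Promoter windows come from RefSeq on build GRCm38.p6, and no coordinates were converted between builds. Tables and figures were made with Python 3.11.15, pandas 2.3.3 and matplotlib 3.10.9.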

Additional observations from a re-analysis of the deposited data

Results flagged for a closer look

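Within each genotype, a mouse was set apart when its gap to the nearest of the other 4, divided by the range of the 5, exceeded 0.71 (Dixon's critical value). Chance gives about 1 in 20 groups, and 13 of 106 groups of members and named genes met it. The share of all genes that meets this rule is not given here, so the count is not a result about the members. In Rragc S74N/+ replicate 4, the high values were Igtp at 517 (next 171), Iigp1 at 600.0 (next 267), Gbp2 at 144 (next 68.1), Irgm2 at 85.0 (next 23.2) and Ifit3 at 269 (next 186). In replicate 5 it was Ifi27 at 447 (next 337).

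In Rragc +/+ mice, replicate 1 was high in Ifitm3 at 975 (next 767), replicate 2 in Oasl2 at 55.1 (next 42.0) and Ifi27 at 363 (next 313), replicate 3 in Eif2ak2 at 70.3 (next 45.0) and Gbp7 at 178 (next 128), and replicate 4 in Irgm2 at 35.4 (next 22.7). Replicate 5 was low in H2-Q7 at 119.6 (next 134). The wild-type values came from 5 different mice, and 5 of the 6 mutant values from a single mouse.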

How the results depend on the processing

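The share of all genes tested that passed the threshold was 3.69% and stayed within 1.5 times of it except with the run of library codes as a covariate (6.30%), without Rragc S74N/+ replicates 4 and 5 (2.38%), and without Rragc +/+ replicate 5 (2.24%) or 4 (2.35%). Without single mice it ran from 2.24% to 3.53%. Among members the number past the threshold was 3, with 1, Oasl2, under TMM rescaling (which lost Gmpr and Ifitm3), 1 without both of these mice and 1 to 3 without single mice. For the further interferon genes it was 5, all higher, with 1 in the later run of library codes alone, 1 without both of these mice and 1 to 5 without single mice. With a mean of at least 50 or the run as a covariate, 5 were higher and 1 lower, and by DESeq2 5 and 2. Without Rragc +/+ replicate 3 or Rragc S74N/+ replicate 2, 3 were higher and 1 lower. Without Rragc S74N/+ replicate 4, 1 was higher and 1 lower. Sign changes were seen only in values that did not pass the threshold. Without Rragc S74N/+ replicates 4 and 5 the log2 fold change became -0.03 for Ifnar2, -0.09 for Stat2, -0.26 for Irf1, -0.15 for Irf9, -0.19 for Ifih1, -0.19 for Adar, -0.29 for Gbp2, -0.36 for Gbp7, -0.10 for Igtp, -0.38 for Irgm2, -0.36 for Iigp1, -0.19 for Ifi47, -0.11 for Parp9, -0.08 for Ifi27 and -0.10 for Lgals3bp. Stat2 was -0.01 by edgeR and -0.0005 by DESeq2, Gbp7 -0.02 with the run as a covariate, and Parp12 0.08 in the later run of library codes alone. Without single mice the values ran from -0.03 to 0.09 for Ifnar2, -0.09 to 0.12 for Stat2, -0.07 to 0.22 for Irf1, -0.05 to 0.14 for Irf9, -0.08 to 0.09 for Ifih1, -0.04 to 0.13 for Adar, -0.18 to 0.29 for Gbp2, -0.18 to 0.17 for Gbp7, -0.01 to 0.51 for Igtp, -0.32 to 0.34 for Irgm2, -0.14 to 0.39 for Iigp1, -0.04 to 0.48 for Ifi47, -0.29 to 0.03 for Parp12 and -0.04 to 0.12 for Ifi27. The cause of these changes was not tested. No paired analysis was possible because the labels give the genotypes no shared replicate numbers. Fewer than 20 reads per library for Ifit2 and Dhx58 limit what these genes can show.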
